A study of Mus musculus with 6 samples.

Results

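Interferon-stimulated genes are the antiviral and immune genes that cells switch on when type I or type II interferon binds its receptor. The levels of 37 of them were compared between astrocytes of 2 mouse brain regions. Members were found by their symbols, current or former, in the platform annotation of the array. Of the 37 genes, 35 had at least 1 probe set of their own, 54 probe sets in all out of the 45037 analysed. The annotation used here lists no probe set for Ifi44, and the only probe set listed for Isg15 is shared with a near copy, Gm9706, so neither gene is counted. A total of 45 probe sets of 32 members were bright enough to be tested, among 27022 probe sets tested in all. Taken by the brightest probe set of each gene with a symbol of its own, these stand for 12616 genes. Oas2, Oas3 and Mx1 had probe sets that were too dim to test.

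The samples were 3 arrays of cerebellar astrocytes, for which the labels name no strain, and 3 arrays of neocortical astrocytes of the ICR strain, an outbred mouse stock. If the strains differed, strain and region cannot be told apart. No age, culture step, interferon treatment or infection is named in the labels, so all levels below are described as levels in these samples. The labels do not say that arrays of one region hold RNA of different animals or cultures, so the p-values rest on a spread that may be technical.

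Astrocytes, the support cells that surround neurons, carry interferon receptors and answer viral infection and inflammation in the brain with these genes. Type I interferon acts through the kinases Jak1 and Tyk2 on a complex that holds Stat2 and Irf9 and binds the interferon-stimulated response element in promoters. Type II interferon acts through another promoter element, the gamma-activated site. Some of these genes are also switched on without secreted interferon, directly by the virus-sensing factor Irf3. A basal level without infection is common.

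Promoter sequences are shown first for 4 members. Rsad2, Gbp3 and Ifit3 were lower in cerebellar astrocytes in at least 1 of 2 fits described below. Ifit1, of the same family as Ifit3, did not pass. Ifit2, also lower in 1 of these fits, is not shown, and its promoter windows held no match to the motif marked here. Each line gives the 170 bases before a RefSeq start of the gene in the GRCm38.p6 build, 5′ to 3′ on the strand of the gene. Capitals mark matches to the core of the response element, GAAANNGAAA or TTTCNNTTTC on the other strand. Overlapping matches run together.
Rsad2, chr12:26456453-26456622, minus strand: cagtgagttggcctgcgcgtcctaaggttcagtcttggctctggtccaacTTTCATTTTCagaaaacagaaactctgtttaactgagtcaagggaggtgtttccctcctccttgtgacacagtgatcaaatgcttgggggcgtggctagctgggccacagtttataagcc
Gbp3, chr3:142559874-142560043, plus strand: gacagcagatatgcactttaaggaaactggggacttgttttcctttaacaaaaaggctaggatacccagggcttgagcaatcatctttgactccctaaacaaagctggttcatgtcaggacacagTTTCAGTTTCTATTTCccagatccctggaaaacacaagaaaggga
Ifit3, chr19:34583359-34583528, plus strand: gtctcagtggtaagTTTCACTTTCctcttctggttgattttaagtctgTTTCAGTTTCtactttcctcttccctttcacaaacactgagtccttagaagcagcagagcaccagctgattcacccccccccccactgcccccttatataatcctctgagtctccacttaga
Ifit1, chr19:34640719-34640888, plus strand: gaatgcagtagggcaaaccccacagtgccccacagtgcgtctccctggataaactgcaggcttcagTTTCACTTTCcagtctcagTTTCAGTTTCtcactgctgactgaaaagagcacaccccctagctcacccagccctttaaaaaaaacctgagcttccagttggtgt

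Rsad2 held 1 match, starting 120 bases before its start, and the other 3 promoters held 2 each. Gbp3 has a further RefSeq start, not shown, whose window held no match. RefSeq promoter windows of 250 bases before to 50 after a start were given for 26 of the 37 members, and 14 of these 26 (53.8%) held the motif on either strand. Over all 27025 genes with a window, 3.99% held it. The gamma-activated site, TTCNNNGAA, which reads the same on both strands, was found in 8 of the 26 members (30.8%) and in 9.55% of all genes. Among the members with the response element core were Gbp2, Irgm1, Igtp, Bst2, Oas1a and Stat2. The windows of Ifit2, Irf7, Irf9, Oasl1 and Oasl2 held none. A match of letters is a description and does not show binding.

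Few of the tested members differed between the regions, and all that did were lower in cerebellar astrocytes. By the brightest probe set of each gene, 2 of 32 (6.25%) were lower in cerebellar astrocytes and none was higher by limma, against 7.36% lower and 5.30% higher among all 12616 genes tested. The share of members that were lower was thus near the background. At an unadjusted p under 0.05, 6 members were lower and none was higher, against 15.3% lower and 12.6% higher of all genes, and without neocortical replicate 3 these counts were 4 lower and 3 higher. The members that passed were Rsad2 and Gbp3. The labels do not state that the array numbers pair the samples. They were taken as pairs from a check on these same values, given with the processing. With the array number as a block Ifit2 and Ifit3 passed as well. That made 4 of 32 (12.5%) lower and none higher, against 8.60% lower and 6.04% higher of all genes. By probe set, 2 of 45 were lower and none higher without the block, against 5.72% and 4.88% of all probe sets tested, and 5 of 45 were lower and none higher with it, against 6.61% and 5.76%. In the blocked fit 7 members were lower and 2 were higher at an unadjusted p under 0.05, against 16.3% and 13.4% of all genes.

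The difference of the tested members, cerebellar minus neocortical on the log2 scale, ran from -1.05 for Gbp3 to 1.22 for Zbp1. Its median was -0.12, against -0.02 for all genes tested, and 20 of 32 members lay below 0. The sign of this median rested on single arrays: it was 0.05 without cerebellar replicate 2 and 0.10 without neocortical replicate 3. Every cerebellar array lay below every neocortical array for 6 members (18.8%), namely Rsad2, Gbp3, Ifit3, Ifit2, Bst2 and Igtp, against 18.3% of all genes. No tested member had every cerebellar array above every neocortical one, against 16% of all genes. By probe set, 9 of 45 lay wholly lower, against 15.7% of all tested, and none wholly higher, against 16.5%.

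**Figure D1:**
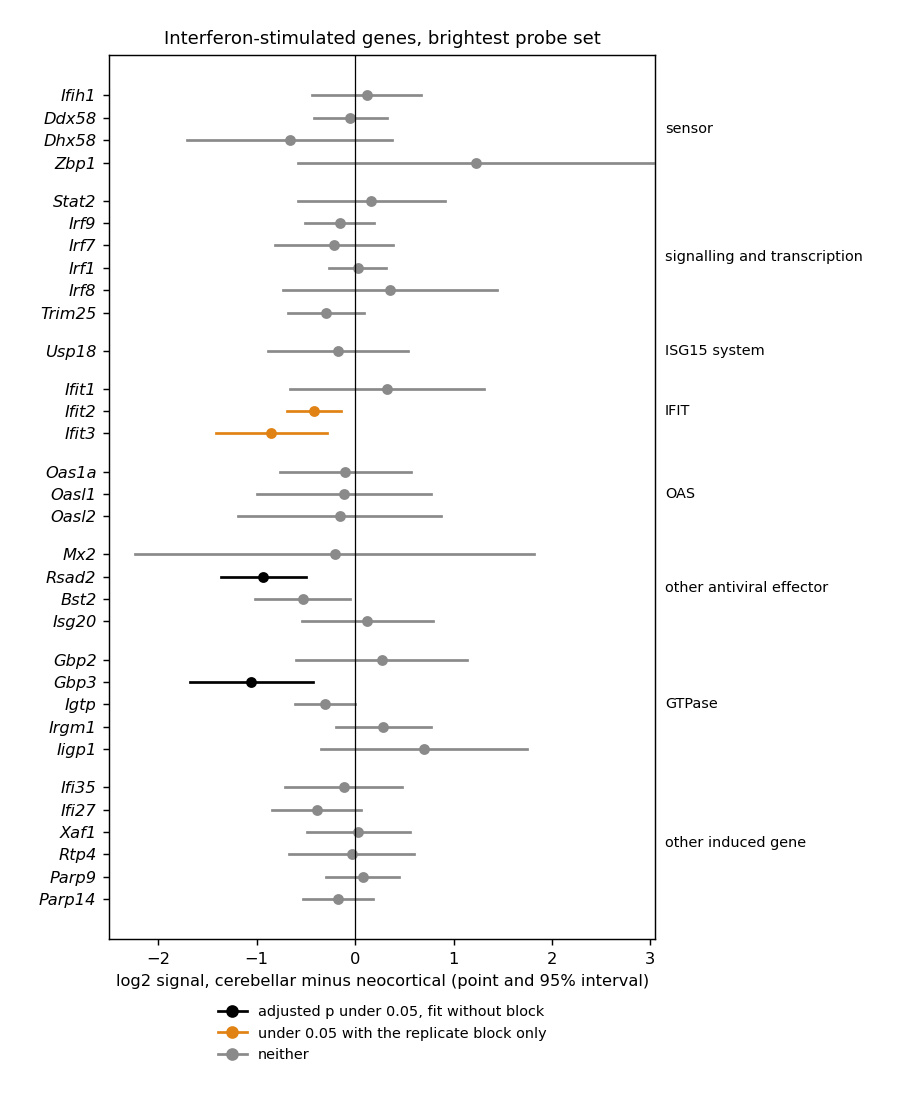
Difference in log2 signal, cerebellar minus neocortical, for the 32 tested members by their brightest probe set, ordered by role. Points are fitted differences and lines their 95% intervals. Rsad2 and Gbp3 passed the adjusted threshold of 0.05 without the replicate block, Ifit2 and Ifit3 with the block alone, and the intervals of the sensors, signalling genes and OAS genes all span 0.

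Rsad2 encodes viperin, a radical SAM enzyme that blocks the growth of many viruses. Its brightest probe set read 915, 994 and 1104 on cerebellar arrays 1 to 3, against 1461, 2319 and 2068 on neocortical arrays 1 to 3, in quantile-normalized signal of arbitrary units. All cerebellar arrays lay below all neocortical arrays. Averages were 1004 ± 95.1 for the cerebellar arrays and 1949 ± 441 for the neocortical arrays (SD, n = 3 each), a 1.91-fold lower level with a log2 difference of -0.93 ± 0.19 (SE, limma adjusted p = 0.0171). The groups also did not overlap on the other probe sets of Rsad2. One of these read 349, 276 and 321 in cerebellar against 478, 471 and 519 in neocortical astrocytes, with a log2 difference of -0.64 (limma adjusted p = 0.111). The dimmest read 204, 283 and 301 against 375, 602 and 838, with a log2 difference of -1.15 (limma adjusted p = 0.0604), and passed with the replicate block (0.0277). The call of the brightest probe set was lost without neocortical replicate 2 (adjusted p = 0.073) and without neocortical replicate 3 (0.0812), while the log2 difference stayed between -1.13 and -0.80 whichever array was left out.

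Gbp3 encodes a guanylate-binding protein, one of the large GTPases that attack vacuoles of intracellular microbes. Its only probe set read 452, 495 and 837 on the cerebellar arrays, against 897, 1360 and 1372 on the neocortical arrays. The highest cerebellar array came close to the lowest neocortical one without reaching it. The means were 594.5 ± 211 and 1210 ± 271 (SD, n = 3 each), a 2.08-fold lower level in cerebellar astrocytes (log2 difference -1.05 ± 0.28 SE, limma adjusted p = 0.0426, and 0.014 with the block). Leaving out cerebellar replicate 1 or 2, or any neocortical replicate, took the adjusted p of Gbp3 above the threshold, to between 0.0509 and 0.153. The probe set carries a suffix that marks transcript variants of 1 gene.

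Ifit3 and Ifit2 belong to the IFIT family, proteins with tetratricopeptide repeats that bind viral RNA or the machinery of translation. Ifit3 read 1395, 1595 and 1982 on the cerebellar arrays, against 2723, 2168 and 4398 on the neocortical arrays. Array 3 was the highest in each group, and the groups did not overlap. The level was 1.81-fold lower in cerebellar astrocytes (1657 ± 298 against 3096 ± 1161, SD, n = 3 each), with a log2 difference of -0.85 ± 0.25 (SE). Ifit3 missed the threshold without the block (limma adjusted p = 0.0617) and passed with it (0.0127). Ifit3b, a near copy of Ifit3, had no probe set of its own, and whether the Ifit3 probe set also reads it was not tested.

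Ifit2 read 3417, 4374 and 3892 in cerebellar against 4816, 5481 and 5264 in neocortical astrocytes, again with no overlap. Its level was 1.34-fold lower (log2 difference -0.42 ± 0.12 SE, limma adjusted p = 0.0578, and 0.0369 with the block). Ifit1, chosen after its values were seen, shares the family and had the opposite order of means. It read 1120, 665 and 1822 in cerebellar against 586, 720 and 1640 in neocortical astrocytes, with array 3 highest in both groups and the ranges overlapping. The log2 difference of Ifit1 was 0.32, with a 95% interval of -0.66 to 1.31 (limma adjusted p = 0.691). On chromosome 19, no protein-coding gene lies between Ifit2 and Ifit3 in the gene table.

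**Figure D2:**
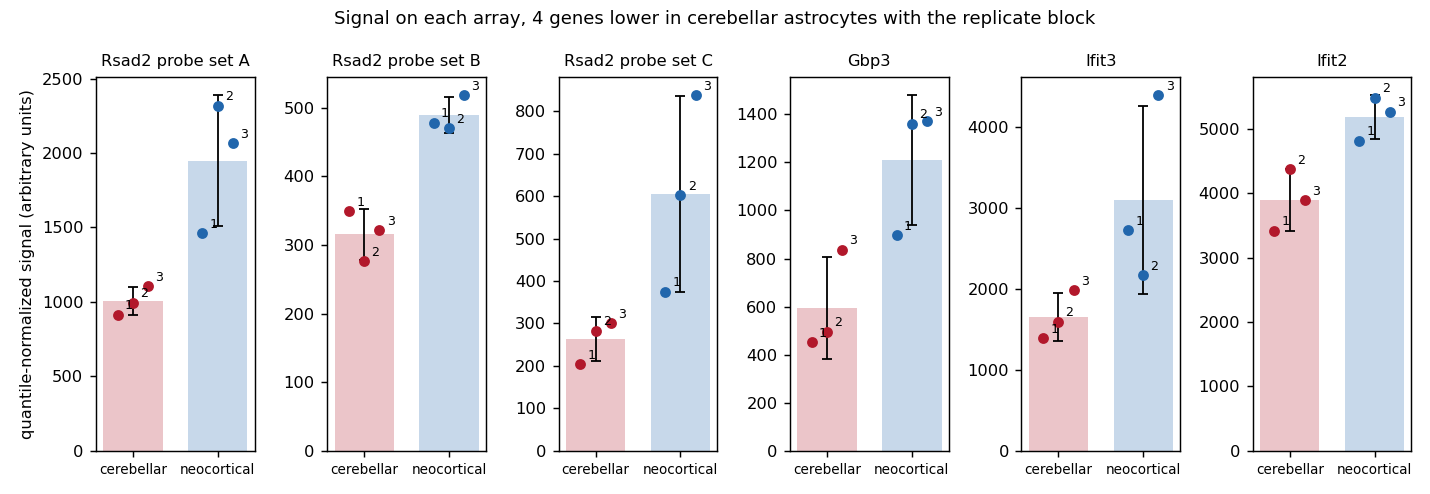
Quantile-normalized signal on each array for Rsad2 (3 probe sets, A brightest), Gbp3, Ifit3 and Ifit2. Bars are group means with SD error bars (n = 3), points are arrays with their numbers, and every cerebellar point lies below every neocortical point in all 6 panels.

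Of the other antiviral effectors, Bst2 (tetherin, which holds budding virus particles on the cell surface) read 1601, 1463 and 1337 in cerebellar against 1868, 1691 and 3002 in neocortical astrocytes. The groups did not overlap, and the gene missed the threshold (log2 difference -0.53 ± 0.21 SE, limma adjusted p = 0.151). Isg20, an exonuclease gene, averaged 587 ± 135 and 550 ± 200 (SD, n = 3 each), with a 95% interval of the log2 difference from -0.54 to 0.79. Mx2, a dynamin-like GTPase gene, read 318, 354 and 65.7 against 279, 48.3 and 656, a spread within groups far wider than the difference between their means. Mx1 read 49.8, 56 and 236 against 106, 83.6 and 102, inside the range of the bacterial control probe sets. That range serves here as a gauge of dim signal. It was taken from the deposited values, before quantile normalization, and reached 269.2, with a 95th percentile of 116.2. Many laboratory mouse strains carry a defective Mx1 gene.

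Among the interferon-inducible GTPases, which act on vacuoles of intracellular pathogens, the members differed in the order of their means. Igtp (Irgm3) read 2087, 1806 and 1936 in cerebellar against 2474, 2105 and 2664 in neocortical astrocytes, with no overlap (log2 difference -0.31 ± 0.13 SE, limma adjusted p = 0.187). Irgm1 read 3136, 2540 and 4079 against 2202, 2356 and 3446, with overlapping ranges (0.29 ± 0.21 SE, adjusted p = 0.437). Iigp1 (Irga6), chosen after its values were seen, read 1096, 524 and 1503 against 375, 487 and 1110. Its log2 difference of 0.70 had a 95% interval from -0.35 to 1.74 (limma adjusted p = 0.383).

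Gbp2, also chosen after its values were seen, is separated from Gbp3 on chromosome 3 by 1 protein-coding gene. The brighter of its 2 probe sets read 1538, 2351 and 5475 in cerebellar against 2083, 2024 and 2674 in neocortical astrocytes. Cerebellar array 3 stood far above the others, as it did on the second probe set (4308, against at most 2222 elsewhere). The log2 difference was 0.27 with that array and -0.24 without it, and neither passed.

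The sensors detect viral nucleic acid. Ddx58 (RIG-I), the brightest of them, read 2453, 1907 and 2357 in cerebellar against 2167, 1997 and 2818 in neocortical astrocytes, with a log2 difference of -0.05 and a 95% interval from -0.42 to 0.33. Its 3 probe sets lay between -0.05 and 0.14. Ifih1 (MDA5) averaged 1427 ± 457 and 1276 ± 179 (SD, n = 3 each), with an interval of the log2 difference from -0.43 to 0.67. Dhx58 (LGP2) had means inside the dim range in both groups. Zbp1, a sensor of Z-form nucleic acid, read 222, 166 and 595 against 58.5, 17.5 and 443, with 2 neocortical arrays at the floor of 62.2. For Zbp1, the interval of the log2 difference ran from -0.58 to 3.03 (limma adjusted p = 0.373). The log2 difference of Zbp1 was 1.22, and 0.22 with the floor set at the 40th percentile. Another Zbp1 probe set, below the filter, averaged 127 in cerebellar and 158 in neocortical astrocytes, the opposite order.

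Genes of interferon signalling and transcription among the members showed no call in either direction, in either fit. The largest difference toward lower cerebellar signal was that of Trim25, the ubiquitin ligase that activates RIG-I. It read 1985, 1882 and 2315 in cerebellar against 2168, 2308 and 3201 in neocortical astrocytes (limma adjusted p = 0.308). A second Trim25 probe set did not overlap between groups, with 1354, 1270 and 1361 against 1701, 1571 and 1825 (log2 difference -0.35, limma adjusted p = 0.127). Irf1, a factor induced by both interferon types, averaged 2434 ± 183 and 2392 ± 249 (SD, n = 3 each), and its interval was narrow, from -0.26 to 0.32. Irf9 had a log2 difference of -0.16 (interval -0.51 to 0.19), Irf7, the amplifier of type I interferon, -0.21 (-0.81 to 0.39), and Stat2 0.17 (-0.58 to 0.91).

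Irf8, a factor that microglia and macrophages need and express strongly, followed the array rather than the region. It was chosen after its values were seen. It read 325, 706 and 673 in cerebellar against 376, 852 and 230 in neocortical astrocytes. The summed signal of 17 microglia and macrophage markers was 12591, 56208 and 38697 on cerebellar arrays and 28357, 51883 and 18803 on neocortical arrays, so that Irf8 and the markers were high and low on the same arrays within each group. All 17 markers passed the filter and none was at the floor on any array. None differed between regions by limma, and none had an unadjusted p under 0.05. The 95% interval of the log2 difference of Csf1r, the brightest marker, ran from -1.32 to 1.32. A regional difference of either sign in that marker is thus not excluded. In bulk RNA, fewer cells of a type and less RNA per cell cannot be told apart.

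Usp18, the protease that removes Isg15 from proteins and damps the receptor, read 947, 519 and 944 in cerebellar against 708, 715 and 1315 in neocortical astrocytes (log2 difference -0.17, interval -0.89 to 0.54). The OAS genes encode or resemble enzymes that make the second messenger for RNase L. Oasl2 read 1105, 609 and 1526 against 645, 995 and 2228, with a log2 difference of -0.16 (interval -1.19 to 0.87). Oas1a and Oasl1 had log2 differences of -0.10 and -0.11, and the means of Oasl1 lay in the dim range in both groups. Oas3, below the filter, read 77, 82.6 and 110 in cerebellar astrocytes and lay under the floor on all 3 neocortical arrays, so both groups were within the dim range.

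The remaining members did not pass in either fit. Ifi35 read 5095, 4600 and 9414 in cerebellar against 5951, 5636 and 8410 in neocortical astrocytes, with array 3 highest in both groups and a log2 difference of -0.12 (interval -0.71 to 0.47). Ifi27, a small membrane protein gene, averaged 5555 ± 1739 and 7123 ± 1079 (SD, n = 3 each, log2 difference -0.39, limma adjusted p = 0.255). Ifi27 passed without cerebellar replicate 3 (-0.64, adjusted p = 0.0314) and with median scaling (0.0435). Xaf1, Rtp4, Parp9 and Parp14 had log2 differences from -0.17 to 0.08. Of these, Parp14 and its binding partner Parp9, ADP-ribosyltransferase family genes that lie near each other on chromosome 16, had intervals of -0.53 to 0.18 and -0.30 to 0.45.

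**Figure D3:**
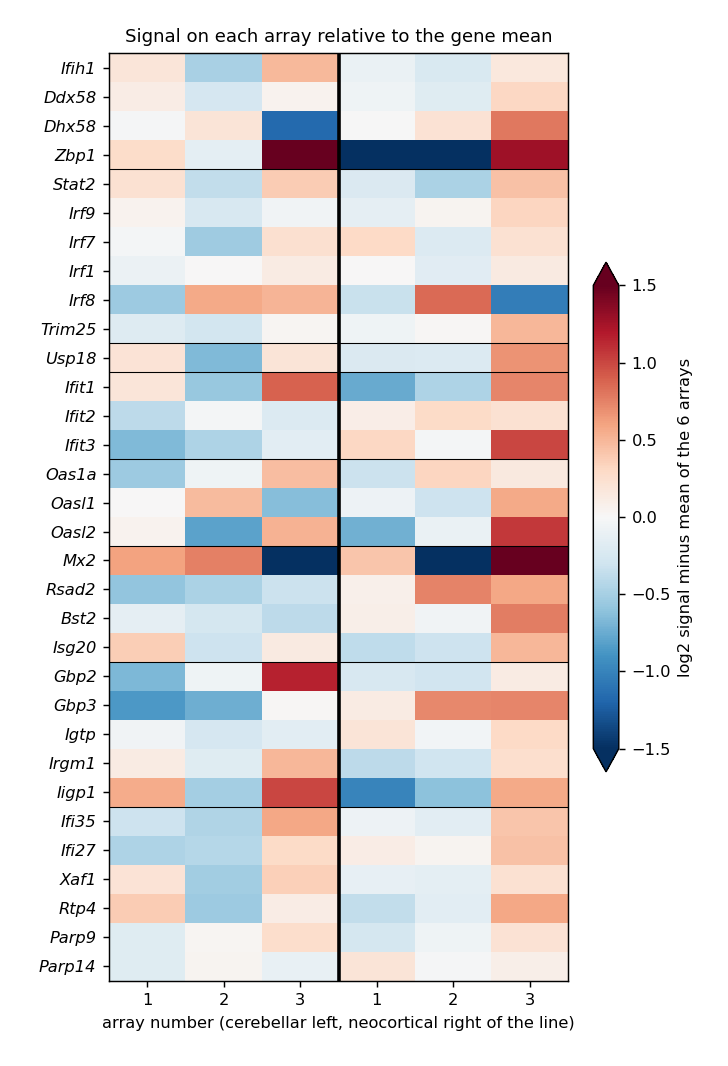
Log2 signal of each tested member on each array minus its mean over the 6 arrays, in role order, with cerebellar arrays left of the line. Columns numbered 3 hold more red cells than columns 1 and 2 on both sides of the line, and the rows of Rsad2, Gbp3, Ifit3, Ifit2, Bst2 and Igtp are bluer on every cerebellar array than on any neocortical one.

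Many members were highest on the array numbered 3, whichever the region. This held on cerebellar arrays for 19 of the 32 tested members, against 28.9% of all genes, and on neocortical arrays for 26, against 31.1%. Of the 32 members, 16 (50.0%) were highest on array 3 in both groups, against 10.7% of all 12616 genes tested. The 16 included Ifit1, Ifit3, Oasl2, Zbp1, Iigp1, Irgm1, Gbp2, Gbp3, Ifih1, Stat2, Ifi35, Ifi27 and Xaf1. Array 3 of Ifit1 stood at 2.04 times the mean of the other 2 cerebellar arrays and at 2.51 times that of the other 2 neocortical arrays. For Oasl2 the ratios were 1.78 and 2.72, for Iigp1 1.86 and 2.57, and for Irgm1 1.44 and 1.51. Rsad2 (1.16 and 1.09), Ifit2 (0.999 and 1.02) and Parp14 (0.974 and 1) did not share this excess.

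Relative to the mean of their own group, the median member was 0.04, -0.21 and 0.28 on cerebellar arrays 1 to 3 and -0.17, -0.17 and 0.32 on neocortical arrays 1 to 3, on the log2 scale. The median of all genes tested stayed between -0.02 and 0.02. Microglia markers did not follow this order: 14 of 17 were highest on cerebellar array 2 and 16 of 17 on neocortical array 2. Of 9 fibroblast and meningeal markers, 6 were highest on cerebellar array 3 and 8 on neocortical array 3. Their summed signal was 56997, 129275 and 226489 on cerebellar arrays and 105209, 83776 and 131646 on neocortical arrays. None of these markers was at the floor on any array, and between regions Twist1 was higher and Ogn lower by limma. With the block Col1a1 (limma adjusted p = 0.00597) and Foxc1 (0.03) were higher as well. Of 8 endothelial markers 3 passed the filter, and of these 2 were highest on cerebellar array 3 and all 3 on neocortical array 3. One of them, Kdr, was 2.96-fold lower in cerebellar astrocytes (limma adjusted p = 0.00304). The others, Cdh5 and Esam, had log2 differences of 0.01 and 0.50 and did not pass (limma adjusted p = 0.993 and 0.401). The part of fibroblasts, meningeal cells and endothelial cells in the array pattern was not tested. With both arrays numbered 3 left out, a setting chosen after seeing the data, no member passed (1 higher and 5 lower at an unadjusted p under 0.05), while the log2 differences of Rsad2 and Gbp3 were -0.95 and -1.22.

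**Figure D4:**
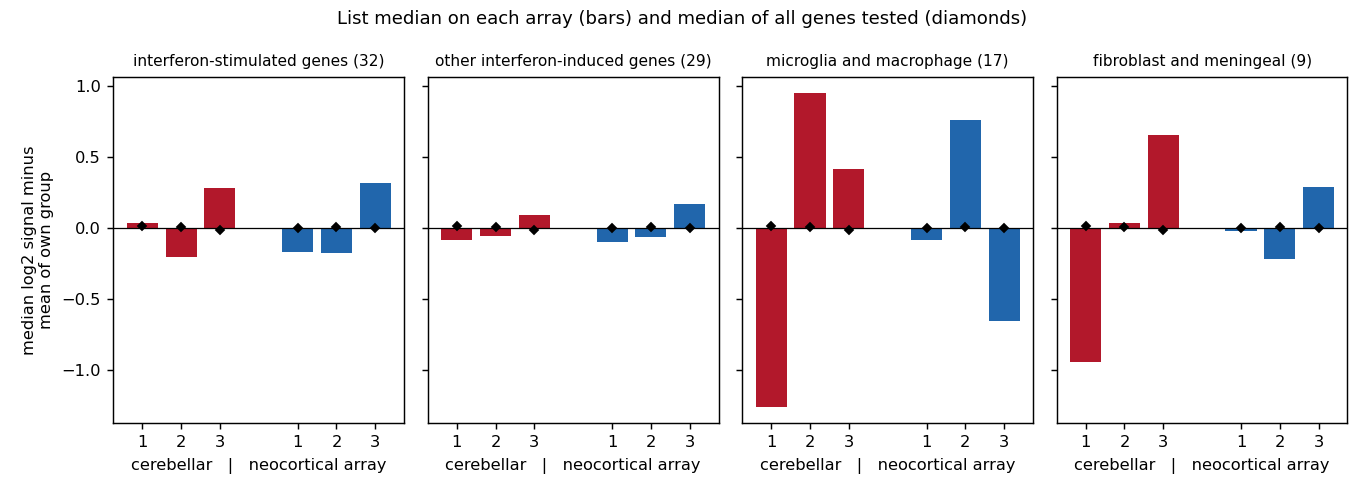
Median log2 signal on each array minus the mean of its own group, for the 32 tested members, 29 other interferon-induced genes, 17 microglia and macrophage markers and 9 fibroblast and meningeal markers (bars, cerebellar left and neocortical right). Diamonds give the median of all genes tested, which stays near 0. Both interferon lists and the fibroblast and meningeal markers are highest on array 3 of each region, and the microglia markers on array 2.

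Upstream of the members, interferon ligands were hardly measured. Of 10 ligand genes listed, Ifnz alone was tested, with 829, 549 and 506 in cerebellar against 383, 340 and 390 in neocortical astrocytes and no overlap (1.66-fold higher, limma adjusted p = 0.0988). Of 12 tested genes for receptors and signal transduction, 1 was higher and none lower (none at an unadjusted p under 0.05). Among all genes tested, 5.30% were higher and 7.36% lower. The higher gene of the 12 was Socs3, a feedback inhibitor of cytokine receptors. Its brightest probe set read 21832, 18224 and 26076 against 14524, 15984 and 16780 (1.39-fold, limma adjusted p = 0.0493). A second Socs3 probe set passed (log2 difference 0.51, limma adjusted p = 0.0329), and the third showed -0.02. The call of the brightest probe set was kept only without cerebellar replicate 2 among the 6 fits that left out an array, and with median scaling its log2 difference was 0.28 (adjusted p = 0.266). Jak1, the kinase shared by both receptors, lay at the threshold by its brightest probe set (1.37-fold higher, limma adjusted p = 0.0518, and 0.0465 with the block). With median scaling the log2 difference of Jak1 was 0.25 (adjusted p = 0.257), and its other probe sets gave 0.39 and -0.35, neither of which passed. The receptor subunit genes had small differences, of 0.21 for Ifnar1, 0.07 for Ifnar2 and -0.29 for Ifngr1.

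Of 15 tested genes that lead to interferon production, 2 were higher and 1 was lower in cerebellar astrocytes, against 5.30% and 7.36% of all genes. Tlr3, the endosomal receptor for double-stranded RNA, read 660, 865 and 925 in cerebellar against 1806, 2082 and 1765 in neocortical astrocytes. The groups lay far apart, and the level was 2.33-fold lower (log2 difference -1.22 ± 0.17 SE, limma adjusted p = 0.00299). Its other probe set was 3.46-fold lower (limma adjusted p = 0.00672, cerebellar signals of 389, 238 and 194). The call of the brighter probe set held whichever array was left out, with log2 differences of -1.31 to -1.07. Cgas, the cytosolic DNA sensor, read 549, 657 and 541 against 281, 348 and 253 (1.99-fold higher, limma adjusted p = 0.0302). Irf3, the factor that starts interferon transcription, read 3985, 4824 and 4730 against 2996, 2958 and 3350 (1.45-fold higher, limma adjusted p = 0.0222). Leaving out any 1 array took Cgas above the threshold, with adjusted p from 0.0502 to 0.107. Irf3 kept its call only without cerebellar replicate 1, and with median scaling it lost it (log2 difference 0.37, adjusted p = 0.104).

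Of 29 tested genes from a further list of interferon-induced genes, 2 were called lower and 2 higher in cerebellar astrocytes. The shares among all genes tested were 7.36% lower and 5.30% higher. Cmpk2, a mitochondrial nucleotide kinase gene, lies beside Rsad2 on chromosome 12 with no protein-coding gene between them in the gene table. Like Rsad2 it was lower, with 1042, 2087 and 1604 in cerebellar against 3345, 5114 and 3873 in neocortical astrocytes (2.67-fold, log2 difference -1.42 ± 0.25 SE, limma adjusted p = 0.00926). Its second probe set was 2.27-fold lower (limma adjusted p = 0.0193). Tor3a, an ATPase gene of the endoplasmic reticulum, read 1548, 1404 and 1334 against 2576, 2939 and 3216 (2.03-fold lower, limma adjusted p = 0.00208), and all 3 of its probe sets passed.

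The higher genes encode membrane proteins that block virus entry. Ifitm1 read 18336, 18971 and 32927 in cerebellar against 9847, 6913 and 13769 in neocortical astrocytes, with array 3 highest in both groups (2.3-fold higher, limma adjusted p = 0.026, and 0.000542 with the block). It lost its call without cerebellar replicate 3 (adjusted p = 0.062) and without neocortical replicate 1 or 2 (0.0804 and 0.0852). Ifitm2 was 1.27-fold higher (limma adjusted p = 0.0476), a call lost whichever array was left out and with median scaling (log2 difference 0.22, adjusted p = 0.379). With the block, Gbp7, which stands next to Gbp3, was also lower by its brightest probe set (1.48-fold, limma adjusted p = 0.0226, and 0.0833 without the block). Its second probe set overlapped between groups (log2 difference -0.20, limma adjusted p = 0.714, and 0.573 with the block). Ifi47, a GTPase gene, was higher with the block (1.64-fold, limma adjusted p = 0.0448, and 0.31 without the block). Ifi47 read 995, 945 and 2722 in cerebellar against 668, 699 and 1250 in neocortical astrocytes, with overlapping ranges, and its log2 difference was 0.22 without cerebellar replicate 3 and 0.71 with it. Cmpk2, Tor3a and Tlr3 kept their calls in all 6 fits that left out 1 array, and Cmpk2 lost its call without a filter (adjusted p = 0.098) and without both arrays numbered 3 (0.0888).

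All 10 astrocyte markers passed the filter in these samples, and in cerebellar astrocytes Slc1a3, Aldoc and Glul were lower and Aqp4 was higher. Of all genes tested, 7.36% were lower and 5.30% higher. With the block Gfap (limma adjusted p = 0.00406, and 0.0649 without) and Slc1a2 (0.0406, and 0.317 without) were lower too. Gfap read 8992, 21832 and 23968 in cerebellar against 28623, 42636 and 38695 in neocortical astrocytes, and Gja1 56253 against 57169 on average. Of 3 tested oligodendrocyte lineage markers, Mbp was 6.27-fold higher (limma adjusted p = 0.0134) and Olig1 3.33-fold lower (limma adjusted p = 0.00129). Of 4 tested neuron markers, Syt1 (limma adjusted p = 0.0227) and Gad1 (limma adjusted p = 0.0233) were lower. The others, Rbfox3 and Stmn2, had log2 differences of 0.56 and 0.14 and did not pass (limma adjusted p = 0.493 and 0.866). Stmn2 read 17383, 10508 and 5219 in cerebellar against 11185, 6065 and 10601 in neocortical astrocytes. The neocortical means of Mbp and Rbfox3 and the cerebellar mean of Gad1 lay in the dim range. Over all 27022 probe sets tested, 1319 (4.88%) were higher and 1545 (5.72%) lower in cerebellar astrocytes. When each array was scaled by its median, these counts were 819 and 2105, with the median of all probe sets at -0.10 against 0.01. Under that scaling Rsad2, Gbp3, Ifit3, Ifit2 and Ifi27 passed as lower. Relative to the median of all probe sets, their log2 differences were -0.94, -1.03, -0.89, -0.51 and -0.50. With the values as deposited Gbp3 did not pass (adjusted p = 0.067) and Ifit2 did (0.0451).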

How the data were processed

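Total RNA was hybridised as biotin-labelled amplified RNA to 6 single-colour arrays, per the labels. The authors deposited 1 linear intensity per probe set and array, and how it was summarised is not given in the sources used here. With 2% trimmed from each end, the mean of the deposited values was 1500 on every array. The arrays were thus already on a common scale by that mean. Probe sets numbered 45101, of which 64 controls were left out. Medians per array still ran from 284.7 to 361.2, so the values were quantile normalized. Signals under the 20th percentile (62.2) were raised to it, log2 was taken, and 27022 probe sets, those whose mean reached the 40th percentile, went into limma 3.58.1 in R 4.3.3 (two-sided, variance trend, Benjamini-Hochberg over all of them, threshold 0.05). The number of arrays, 3 per group, limits the precision. In data simulated over 27022 probe sets, changes of 1.5-fold (67 probe sets), 2-fold (67) and 4-fold (66) were recovered for 7.5%, 35.8% and 66.7%. Far fewer probe sets were changed there than the 1319 higher and 1545 lower ones called in the data. With fewer changed probe sets the Benjamini-Hochberg threshold is stricter, so these shares may understate recovery in the data.

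Symbols came from the platform annotation, with 1 symbol for 34945 probe sets, several for 932 and none for 9160, updated by Entrez ID through the GRCm38.p6 gene table. A gene is represented by its brightest probe set. With group means removed, arrays that share a number correlated at 0.18, 0.188 and 0.101, all over 0.1, so the numbers were taken to pair the arrays. Arrays of unlike number correlated at -0.182 to 0.0225. These lower values are not separate support for the pairing. Deviations from a group mean cancel out within the group, so positive values for some pairs push others down. This pairing was inferred from the values that were then tested, and the labels do not state it. The fit without a block is the main one, and the blocked value is printed where it changes a call. Values were given per array for members that passed, for the brightest of each role and for members without overlap. In other lists up to 4 genes per direction were named. The members and lists were chosen with earlier results of these data known.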

Additional observations from a re-analysis of the deposited data

How the results depend on the processing

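Besides Ifit2, Ifit3 and 1 Rsad2 probe set, the replicate block changed no member's call. No alternative called any tested member higher, and none turned the direction of a member that passed in the main fit or the alternative. With median scaling, without a filter, without a variance trend and with both arrays numbered 3 left out, 819, 577, 676 and 329 probe sets were higher in cerebellar astrocytes. Without a filter, without a trend and without the arrays numbered 3, 704, 914 and 426 were lower. Member probe sets that were lower, 2 in the main fit, numbered 6 with median scaling, 0 without a filter, 5 with the replicate block, 0 without the arrays numbered 3 and 1 without suffixed probe sets. The limma counts of 0 stood beside 8 and 7 at an unadjusted p under 0.05. By gene these counts were 5, 0, 4, 0 and 1, and 1 without a trend. Gbp3 has no unsuffixed probe set. Over the fits that left out 1 array, 548 to 1233 probe sets were higher and 665 to 1542 lower. Members that were lower numbered 0 to 3 by probe set and by gene, with 0 without neocortical replicate 3 (5 probe sets and 4 genes at an unadjusted p under 0.05). The median member difference was -0.20 to 0.10. Other pathway genes that were higher, 5 in the main fit, numbered 0 to 4 in these fits, which all had 3 lower, and 1 without the arrays numbered 3. The counts of 0 stood beside 8 or 9 at an unadjusted p under 0.05. Cell type markers that were higher, 3 in the main fit, numbered 2 to 6 and 5 with the replicate block. Those that were lower, 8 in the main fit, numbered 5 to 9 and 5 without the arrays numbered 3. Small differences and members in the dim range, up to 269.2, are the ones that 3 arrays per group limit most.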
